A study of Rattus norvegicus with 8 samples.

Results

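The guidance genes described here encode the semaphorins with their plexin and neuropilin receptors, the ephrins with their Eph receptors, the Slits with their Robo receptors, and the netrins with the receptors Dcc and Unc5. They were taken from an NCBI table of rat genes by symbol, which gave 69 genes. Of these, 54 had at least 1 named probe on the array (76 probes in all), and 42 had a probe bright enough to be tested, among 24552 genes or unnamed probes tested in all. Vessels were taken from 4 male hypertensive rats and 4 male control rats, and 1 Cy3-labelled Agilent expression array was run per rat. The labels call the first group a disease model with hypertensive disease and the second control. Wistar-Kyoto, a normotensive laboratory strain, stands as the strain of both groups, while the series title reserves it for the controls, so the strain of the hypertensive rats is not settled here. The age of the rats, the vessel taken and any treatment are not given in the sources used here. The question was how transcripts of vessels differ between hypertensive and control rats.

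These families were named for steering growing axons, and vessels use the same signals. Ephrins are bound to the cell surface and signal on contact with an Eph receptor tyrosine kinase on the next cell, in both directions; the pair of Efnb2 on arteries and Ephb4 on veins is the textbook example in vessels. Class 3 semaphorins are secreted and act through a neuropilin with a plexin, whereas the other vertebrate classes are mostly membrane proteins that bind plexins directly. Secreted Slits act on Robo receptors. Secreted netrins attract through Dcc and repel through Unc5 receptors.

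Levels are log2 processed signal relative to the 75th percentile of the array, so a level of 0 is a probe at that percentile. Levels are compared between arrays for 1 probe, not between probes. Differences are hypertensive minus control, and a difference after ± has the standard error of a limma fit across all tests. The threshold was a Benjamini-Hochberg adjusted p under 0.05, and every adjusted p is from that fit. The 75th percentile itself was at a signal of 357 to 478 on the hypertensive arrays and 405 to 503 on the control arrays. The first principal component of all tests (42.4% of the variance) parted the groups. The second (17.0%) set hypertensive replicate 4 apart, at -44.6 against -12.0 to 24.9 for the other 7 arrays. Results of guidance genes that turn on that array are therefore also given without it. All 8 arrays were on 1 slide, where the position numbers in the file headers begin with 2 for each hypertensive and with 1 for each control array, so position and group cannot be told apart. Of 7 smooth muscle markers (Myh11, Acta2 and others) and 7 endothelial markers (Pecam1, Cdh5 and others), each had a tested probe. So had each Schwann cell, mast cell and macrophage marker examined, so detection alone does not identify the tissue. In such tissue samples, fewer cells of a type and less RNA per cell cannot be told apart.

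Among the tested guidance genes, 1 passed the threshold. Efnb1, which encodes the membrane-spanning ligand ephrin-B1, rose in hypertensive vessels, and none fell. The 1 of 42 (2.38%) stands beside 4.53% of all tests called in either direction, and 2.61% called higher, so the share called was not above the background. At an unadjusted p under 0.05 there were 10 of 42 (23.8%), beside 20.3% of all tests. The groups did not overlap for 4 (9.52%), beside 13.6%. The median difference of the 42 was 0.02, beside 0.04 over all tests, and 39 of the 42 differed by less than 0.5 either way.

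The 10 genes with an unadjusted p under 0.05 were divided by family. All 4 with a higher level in hypertensive vessels were ephrins or Eph receptors (Efna5, Efnb1, Ephb2 and Epha5), of 12 tested in those families. All 6 with a lower level were semaphorins or a plexin (Sema3b, Sema3d, Sema4b, Sema4c, Sema6d and Plxna2), of 21 tested semaphorins, plexins and neuropilins. None of the 9 tested Slit, netrin and Unc5 genes was among them. Over all tests, 12.2% were higher and 8.02% lower at that unadjusted p. The median difference was 0.19 for ephrins and Eph receptors and -0.08 for semaphorins, plexins and neuropilins. By sign alone, 9 of the 12 ephrins and Eph receptors and 9 of the 21 semaphorins, plexins and neuropilins were above 0. Over all tests, 14158 of 24552 were above 0. The division by family was seen in the values and was not tested. The 17 other settings tried reuse the same arrays, so their counts are no further support for it. In them, 4 or 5 ephrin and Eph genes were higher and 2 to 7 semaphorin family genes lower at that unadjusted p. Against the division, 1 ephrin or Eph gene was lower without hypertensive replicate 2. With normexp background correction and without hypertensive replicates 1, 3 or 4, 1 or 2 semaphorin family genes were higher.

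**Figure D1:**
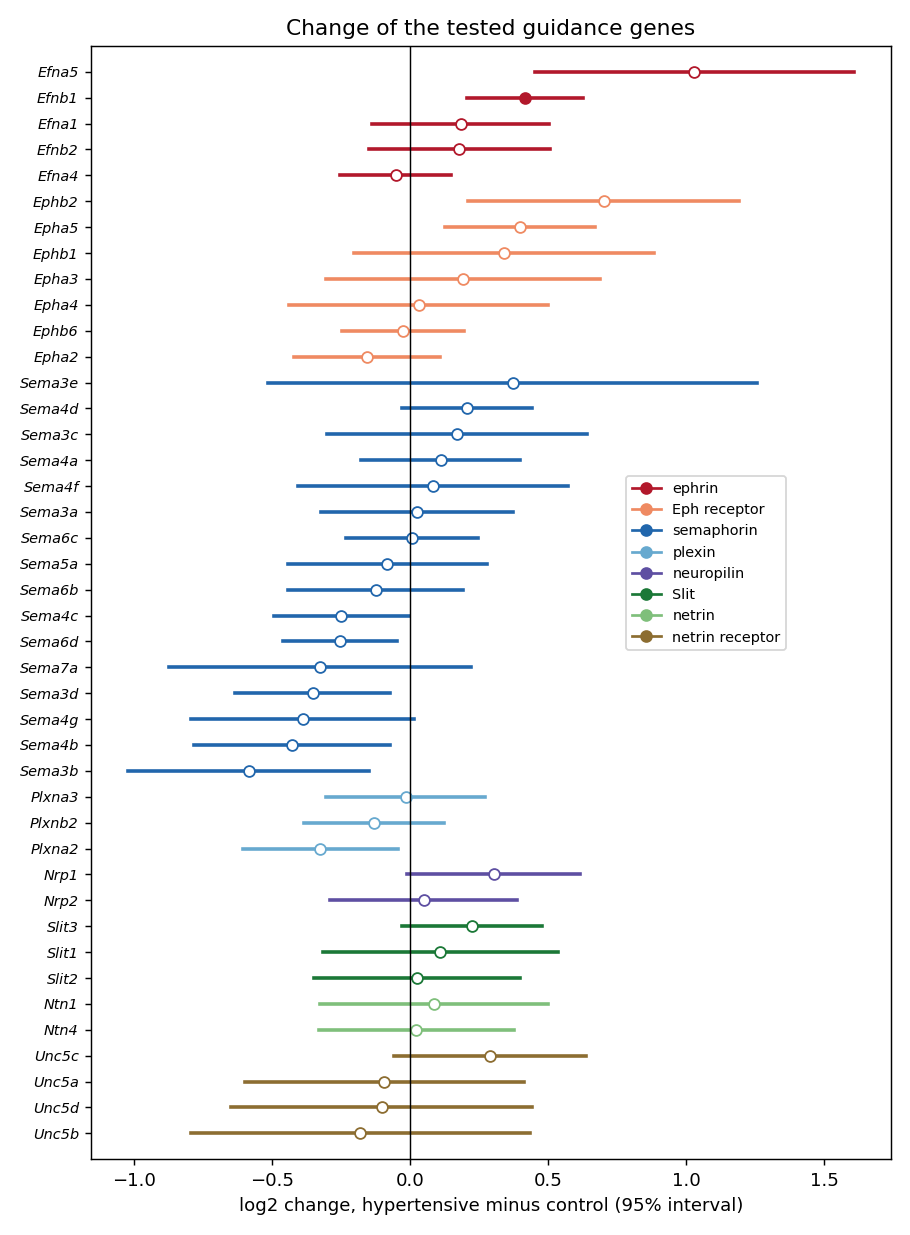
Log2 change (hypertensive minus control) of each of the 42 tested guidance genes, with its 95% interval from the limma fit. Colours mark the families, and a filled point marks an adjusted p under 0.05, which Efnb1 alone reached; Efna5 has the largest difference, at 1.03.

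The ephrin ligands held the clearest differences. Efnb1 had levels of -0.34, -0.09, -0.08 and -0.25 in hypertensive vessels (replicates 1 to 4), against -0.68, -0.68, -0.58 and -0.48 in control vessels. All 4 hypertensive arrays lay above all 4 control arrays. The means were -0.19 ± 0.13 in hypertensive and -0.60 ± 0.09 in control vessels (SD, n = 4 each), a rise of 0.42 ± 0.09 (1.33-fold, 95% interval 0.21 to 0.63, adjusted p = 0.0410). The call held in only some of the fits with 1 array left out. The adjusted p was 0.0379 and 0.0477 without hypertensive replicates 1 and 4, and 0.0565 to 0.116 without any other 1 array. The difference stayed between 0.38 and 0.47. In the fits where the call was lost, 2.56% to 3.34% of all tests were called, beside 4.53% with all arrays. Where it held, without hypertensive replicates 1 and 4, 3.38% and 6% were called. The call was also lost with median centring (Efnb1 0.33, adjusted p = 0.135). That centring moves the median difference of all tests to -0.04, beside 0.04 with the 75th percentile. No detection filter (adjusted p = 0.117) and a test without variance moderation (adjusted p = 0.0622) lost the call too.

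Efna5 encodes ephrin-A5, which is tethered to the membrane by a lipid anchor and binds mainly EphA receptors. Its levels were -1.24, -0.95, -0.99 and -0.80 in hypertensive vessels and -2.80, -2.05, -1.77 and -1.48 in control vessels. The groups did not overlap (among tests of all genes, 7.84% were higher without overlap), and the control arrays were spread over more than 1 log2 unit. The difference was 1.03 ± 0.25 (2.04-fold, 95% interval 0.45 to 1.61) and just missed the threshold (adjusted p = 0.0595). A dimmer kept probe of Efna5 was well above background on 3 of 4 hypertensive arrays and on no control array. It read -4.96, -4.35, -4.60 and -4.91 in hypertensive vessels against -5.89, -6.02, -6.60 and -5.21 in control vessels. With its dimmest control reading, that of control replicate 3, raised to a floor, that probe was 2.01-fold higher on the processed signal. It was kept through the hypertensive arrays alone, so it is no support for the difference. The floor of each control array was the dimmest reading that any probe had well above background there. A probe not well above background can read above that floor, so 2.01-fold is no strict lower limit. With normexp background correction the difference of the brightest probe passed (0.75, adjusted p = 0.0213). Without control replicate 1, the lowest array, it was 0.77 (adjusted p = 0.0547), and without control replicate 4 it was 1.21 and passed (adjusted p = 0.0352).

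The promoters of Efnb1 and Efna5 are shown because these were the ephrin genes whose groups did not overlap. Each runs from 250 bases before to 50 after the start of the gene in RefSeq (build GRCr8), 5′ to 3′ on the strand of the gene, with CpG dinucleotides in capitals. The Efnb1 promoter lies at chrX:68297279-68297578 on the plus strand, and the Efna5 promoter at chr9:110042138-110042437 on the minus strand.
Efnb1: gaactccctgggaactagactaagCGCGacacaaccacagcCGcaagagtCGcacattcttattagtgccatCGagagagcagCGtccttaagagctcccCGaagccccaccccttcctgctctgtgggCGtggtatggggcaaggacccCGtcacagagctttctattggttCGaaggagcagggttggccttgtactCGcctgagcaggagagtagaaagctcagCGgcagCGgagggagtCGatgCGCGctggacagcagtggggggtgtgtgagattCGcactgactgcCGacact
Efna5: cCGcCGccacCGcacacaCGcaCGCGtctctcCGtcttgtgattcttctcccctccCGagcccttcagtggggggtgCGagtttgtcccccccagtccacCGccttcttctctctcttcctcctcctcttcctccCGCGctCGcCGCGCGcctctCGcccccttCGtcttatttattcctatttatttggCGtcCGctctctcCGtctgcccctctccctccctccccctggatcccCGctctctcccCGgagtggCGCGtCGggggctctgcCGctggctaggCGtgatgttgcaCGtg
Efnb1 has 18 CpG dinucleotides in this window and Efna5 29. The median was 18 over the 54 guidance genes with an entry, against 12 over 19005 promoters of protein-coding genes in the table. The motif TATAAA, searched on both strands, occurs in 0 of the 54 guidance promoters and in 13.1% of the 19005. The motif GGGCGG, searched on both strands, occurs in 30 of the 54 (55.6%) and in 43.1%, but in neither of the windows shown. These are matches of letters and say nothing of a factor that binds.

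The other tested ephrins did not pass. Efna1, an ephrin-A induced by inflammatory signals in endothelium, had 3.35, 3.87, 4.01 and 3.84 in hypertensive vessels against 3.63, 3.49, 3.70 and 3.53 in control vessels. Efnb2, the arterial ephrin, had -1.41, -1.64, -1.64 and -2.06 in hypertensive vessels against -1.91, -1.89, -2.01 and -1.65 in control vessels. Both sets of arrays overlapped, with differences of 0.18 ± 0.14 for Efna1 (95% interval -0.14 to 0.50, adjusted p = 0.510) and 0.18 ± 0.14 for Efnb2 (95% interval -0.15 to 0.51, adjusted p = 0.532). Efna4 differed by -0.05 ± 0.09.

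**Figure D2:**
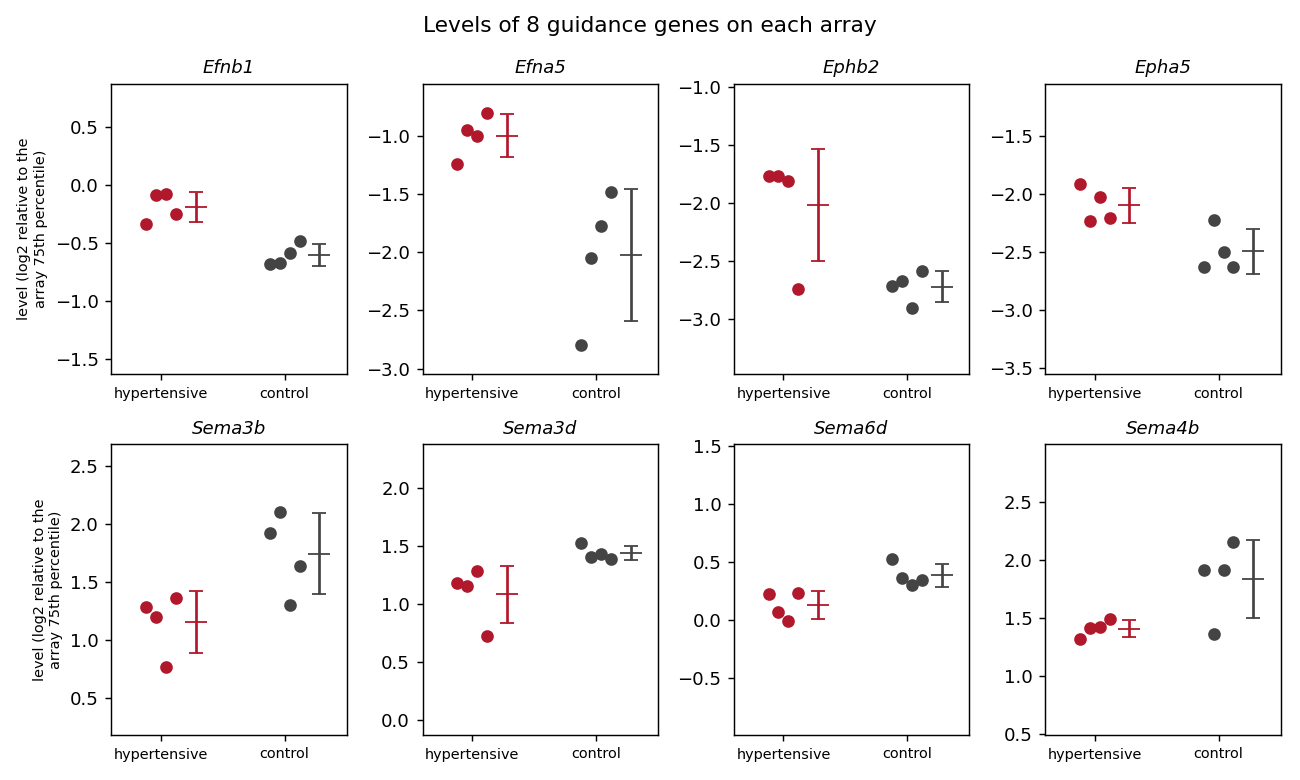
Level of 8 guidance genes on each array (log2 relative to the array's 75th percentile), hypertensive at left and control at right, with the mean and SD of 4 arrays beside the points; each panel spans 2.5 log2 units. Efnb1 and Efna5 are higher and Sema3d and Sema6d lower on every hypertensive array, and 1 hypertensive array of Ephb2 lies among the controls.

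None of the 7 tested Eph receptors passed the threshold, and their differences ran from -0.16 to 0.70. Ephb2, a receptor for B-type ephrins, had -1.76, -1.77, -1.81 and -2.74 in hypertensive vessels against -2.71, -2.67, -2.91 and -2.59 in control vessels. Hypertensive replicates 1 to 3 lay above all controls, and hypertensive replicate 4 lay within the control range. The difference was 0.70 ± 0.22 (1.62-fold, 95% interval 0.21 to 1.19, adjusted p = 0.113), and without hypertensive replicate 4 it was 0.94 and passed (adjusted p = 0.0021).

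Epha5, a receptor for A-type ephrins known mainly from the brain, had -1.92, -2.23, -2.03 and -2.21 in hypertensive vessels against -2.63, -2.22, -2.50 and -2.63 in control vessels. The groups touched at replicate 2 of each, and the difference was 0.40 ± 0.12 (adjusted p = 0.105), past the threshold only with normexp background correction among the 17 other settings (0.30, adjusted p = 0.0386). Ephb1 read -1.90, -2.26, -1.39 and -2.15 in hypertensive vessels against -2.01, -2.05, -2.14 and -2.86 in control vessels. These groups overlapped (0.34 ± 0.24, adjusted p = 0.466). A second probe of Ephb1, above background on 3 hypertensive and 2 control arrays, gave 0.66 ± 0.25. That probe was kept through the hypertensive arrays alone, so it is no support for the difference. The difference of the brightest Ephb1 probe was 0.14 without control replicate 4 and 0.16 without hypertensive replicate 3.

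Epha2, which binds ephrin-A1 and is found on endothelium, read 3.10, 3.42, 2.95 and 2.99 in hypertensive vessels against 3.23, 3.38, 3.32 and 3.16 in control vessels (-0.16 ± 0.12, 95% interval -0.42 to 0.11). The remaining tested receptors, Epha3, Epha4 and the kinase-dead Ephb6, differed by 0.19 ± 0.22, 0.03 ± 0.21 and -0.03 ± 0.10. Ephb4, the venous receptor of Efnb2, had no named probe and was not analysed here.

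Summed nerve markers lay higher in hypertensive vessels, and each mast cell marker had a difference above 0, although none of these genes passed the threshold. The summed linear signal of 7 Schwann cell markers, in units of the 75th percentile, was 5.44 to 7.79 in hypertensive and 3.41 to 5.24 in control vessels, without overlap. That of 4 tested neuronal markers (Th, Uchl1, Stmn2 and Tubb3) was 3.37 to 4.40 in hypertensive and 2.81 to 3.23 in control vessels, also without overlap, while Dbh, Snap25, Nefl, Nefm and Elavl4 gave no test. The 6 mast cell markers had a median difference of 0.71, with 5 of them at an unadjusted p under 0.05, against 2 of the 7 Schwann cell markers (median 0.30) and 1 of the 4 neuronal markers (median 0.23). Each marker at that unadjusted p was higher, beside 12.2% of all tests. Hypertensive replicate 4, which the second principal component set apart, read highest of its group for every mast cell marker but Kit. It also read highest of its group for the Schwann cell marker S100b. The summed signal of the mast cell markers was 1.62 to 2.998 in hypertensive and 1.09 to 1.68 in control vessels, with an overlap. The part of these markers in the ephrin and Eph differences was not tested. The 7 endothelial markers summed to 115 to 147 in hypertensive and 106 to 121 in control vessels, and the 7 smooth muscle markers to 314 to 450 in hypertensive and 293 to 400 in control vessels, and both overlapped.

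No semaphorin of the 16 tested passed the threshold, with differences from -0.59 to 0.37 and a median of -0.10. Of the class 3 genes, whose proteins are secreted, 5 of 7 were tested. Sema3b, known as a suppressor of tumour growth, had 1.29, 1.20, 0.77 and 1.37 in hypertensive vessels against 1.92, 2.10, 1.31 and 1.64 in control vessels. The groups overlapped by 1 array on each side, and the difference was -0.59 ± 0.19 (95% interval -1.02 to -0.15, adjusted p = 0.132).

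Sema3d, which guides endothelial cells of the forming pulmonary veins in the mouse, had 1.18, 1.15, 1.28 and 0.72 in hypertensive vessels against 1.53, 1.40, 1.43 and 1.39 in control vessels. The groups did not overlap (5.78% of all tests were lower without overlap), and hypertensive replicate 4 was the lowest array. The difference was -0.35 ± 0.12 (adjusted p = 0.153), and -0.23 without that replicate (adjusted p = 0.127).

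Sema3a, a repellent of sympathetic axons and an inhibitor of vessel sprouting, had 1.21, 1.15, 0.85 and 0.51 in hypertensive vessels against 0.84, 0.99, 0.81 and 0.999 in control vessels. Sema3c, which acts in the septation of the cardiac outflow tract, had 2.04, 1.40, 1.099 and 1.08 in hypertensive vessels against 1.19, 1.45, 1.0975 and 1.21 in control vessels. For both genes the hypertensive arrays spread around the controls, with differences of 0.02 ± 0.15 for Sema3a (95% interval -0.33 to 0.37) and 0.17 ± 0.21 for Sema3c (-0.30 to 0.64), and the sign turns in some settings. Sema3e, the ligand of plexin-D1, was dim, at -5.25, -3.45, -4.01 and -3.48 in hypertensive vessels against -4.82, -4.23, -3.96 and -4.67 in control vessels, and its interval was the widest of the 42 (0.37 ± 0.39, -0.51 to 1.26).

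Among membrane-bound semaphorins, Sema6d had 0.23, 0.07, -0.0016 and 0.24 in hypertensive vessels against 0.53, 0.36, 0.31 and 0.34 in control vessels, with no overlap. The difference was small, at -0.25 ± 0.09 (1.19-fold lower, adjusted p = 0.162). Sema4b had 1.31, 1.41, 1.42 and 1.49 in hypertensive vessels against 1.91, 1.36, 1.91 and 2.15 in control vessels. Control replicates 1, 3 and 4 of Sema4b lay above all hypertensive arrays, and control replicate 2 among them (-0.43 ± 0.16, adjusted p = 0.166). Without control replicate 2 its difference passed (-0.59, adjusted p = 0.0224), whereas the mean of its 2 kept probes gave -0.17, since the dimmer probe, above background on 1 hypertensive and 3 control arrays, differed by 0.10 ± 0.20.

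Sema4g read -4.61, -4.62, -4.67 and -4.50 in hypertensive vessels against -3.80, -4.74, -4.08 and -4.22 in control vessels. Here too control replicate 2 was the lowest control, and the difference of -0.39 ± 0.18 (adjusted p = 0.261) was -0.57 without it (adjusted p = 0.0494). With normexp background correction the Sema4g difference was -0.002 (adjusted p = 0.988). Sema4c differed by -0.25 ± 0.11 (adjusted p = 0.236). Sema4d, a ligand of plexin-B1 that promotes vessel growth, differed by 0.21 ± 0.10 (95% interval -0.03 to 0.44). Sema4a, Sema4f, Sema5a, Sema6b, Sema6c and Sema7a differed by -0.33 to 0.11, with adjusted p of 0.485 to 0.984.

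Of the semaphorin receptors, Nrp1, a co-receptor of class 3 semaphorins and of VEGF on endothelium, had 2.91, 2.58, 2.34 and 2.35 in hypertensive vessels against 2.32, 2.16, 2.13 and 2.37 in control vessels. Only hypertensive replicates 1 and 2 of Nrp1 lay above all controls, and the difference was 0.30 ± 0.14 (95% interval -0.01 to 0.62, adjusted p = 0.262). Its second probe gave 0.17 ± 0.19. Nrp2, the neuropilin of veins and lymphatic vessels, had 2.87, 3.29, 3.17 and 2.88 in hypertensive vessels against 2.73, 3.01, 2.95 and 3.32 in control vessels. The Nrp2 groups overlapped throughout (0.05 ± 0.15, 95% interval -0.29 to 0.39), its other kept probes gave -0.03 ± 0.25 and -0.15 ± 0.20, and its sign turns with median centring and normexp. Plexins were covered thinly, with 3 of 9 tested. Plxna2, a class 3 semaphorin receptor subunit, differed by -0.33 ± 0.12 (adjusted p = 0.182), Plxnb2 by -0.13 ± 0.11 and Plxna3 by -0.02 ± 0.13. Plxnd1, the plexin of endothelium, had no named probe.

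**Figure D3:**
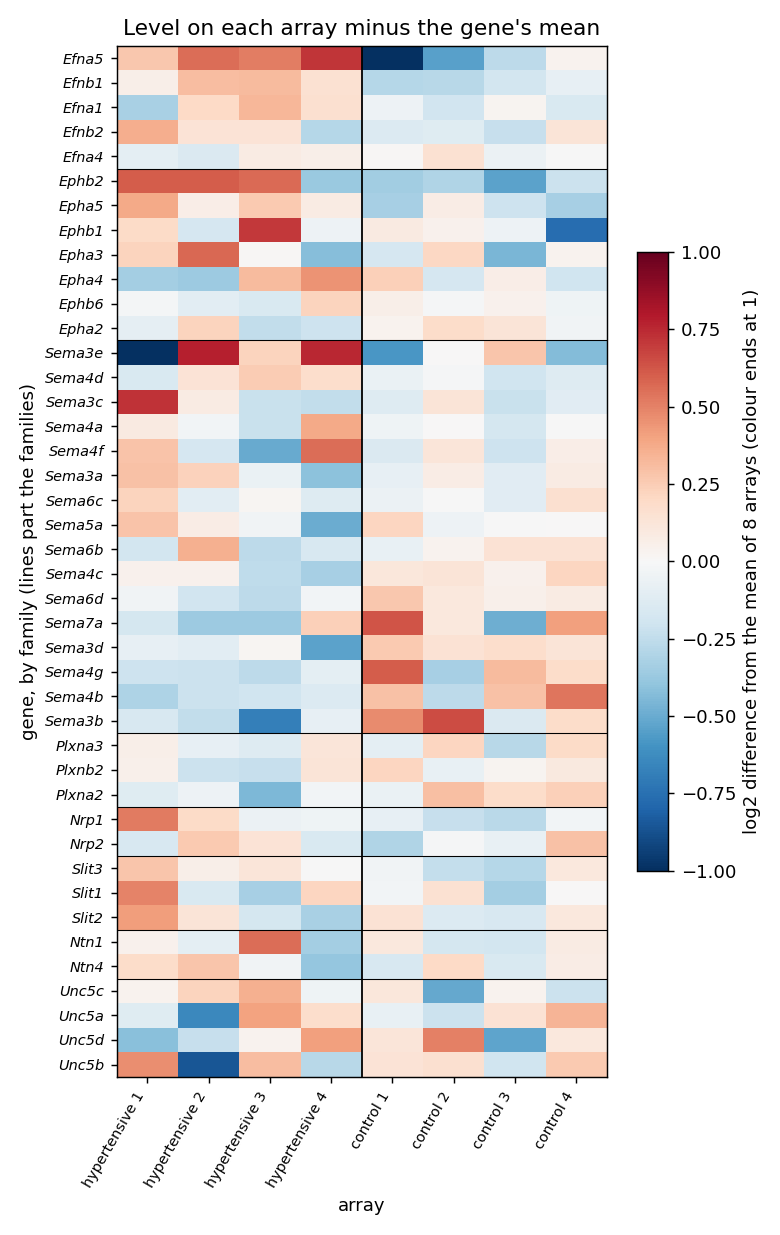
Level of each tested guidance gene on each array minus the gene's mean over the 8 arrays (log2; colour ends at 1), with hypertensive arrays left of the line and genes ordered by family. Efna5 and Efnb1 are above their mean on all hypertensive arrays, whereas Sema3a, Slit2 and Unc5b vary more among the hypertensive arrays than between the groups.

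Slit genes showed no difference past the threshold. Slit2, a ligand of Robo1, had 1.45, 1.16, 0.85 and 0.71 in hypertensive vessels against 1.17, 0.89, 0.87 and 1.13 in control vessels. The groups overlapped, the difference was 0.02 ± 0.16 (95% interval -0.35 to 0.40), and a second probe gave 0.04. Slit3, which smooth muscle of the vessel wall makes, had 5.15, 4.93, 4.99 and 4.86 in hypertensive vessels against 4.84, 4.63, 4.59 and 4.97 in control vessels. Control replicates 1 to 3 of Slit3 lay below all hypertensive arrays (0.22 ± 0.11, 95% interval -0.03 to 0.48, adjusted p = 0.302). Slit1, known mainly from the nervous system, differed by 0.11 ± 0.19. No Robo gene could be tested: Robo1, above background on 2 hypertensive arrays and 1 control array, and Robo2, on none, did not pass the detection filter, and Robo3 and the endothelial Robo4 had no named probe.

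The netrins did not differ past the threshold. Ntn1, the ligand of Dcc and Unc5 receptors, had -0.32, -0.46, 0.19 and -0.70 in hypertensive vessels against -0.26, -0.54, -0.55 and -0.28 in control vessels. Ntn4, a laminin-binding basement membrane netrin, had -2.13, -2.04, -2.34 and -2.69 in hypertensive vessels against -2.47, -2.11, -2.47 and -2.24 in control vessels. Both overlapped, with differences of 0.09 ± 0.18 for Ntn1 (95% interval -0.33 to 0.50) and 0.02 ± 0.16 for Ntn4 (-0.33 to 0.38), whose signs turn with median centring. Unc5b, the netrin receptor of endothelium, had -2.50, -3.82, -2.65 and -3.24 in hypertensive vessels against -2.82, -2.80, -3.16 and -2.70 in control vessels. The hypertensive arrays of Unc5b spread on both sides of the controls (-0.18 ± 0.27, 95% interval -0.79 to 0.43). Unc5a, Unc5c and Unc5d differed by -0.09 ± 0.22, 0.29 ± 0.15 and -0.10 ± 0.24. A second probe of Unc5a gave 0.21 ± 0.09, in the other direction. Both Dcc probes were below background on all 8 arrays.

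Besides Dcc, Robo1 and Robo2, 9 guidance genes had probes but none bright enough in either group: Efna2, Efnb3, Epha1, Epha7, Epha8, Ntn3, Ntn5, Plxnb3 and Sema3g. The Epha8 probe was above background on 2 of 4 hypertensive and 0 of 4 control arrays, at -4.97, -6.17, -4.33 and -3.10 in hypertensive vessels against -5.94, -6.04, -5.81 and -6.02 in control vessels. Its levels in hypertensive vessels were widely spread, and it was not tested. The 15 genes without a named probe were Efna3, Epha6, Epha10, Ephb3, Ephb4, Plxna1, Plxna4, Plxnb1, Plxnc1, Plxnd1, Robo3, Robo4, Sema3f, Sema5b and Sema6a, which were not analysed here. Of the tested genes, 39 were well above background on all 8 arrays, the exceptions being Sema3e, Sema4g and Unc5d, and Unc5d entered through the control arrays alone.

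As in all tests, the SD of guidance genes was mostly larger among hypertensive than among control arrays. It was larger in hypertensive vessels for 30 of 42 (71.4%), beside 64.8% of all tests, and its median was 0.27 in hypertensive and 0.16 in control vessels, beside 0.19 in hypertensive and 0.15 in control vessels over all tests. Among controls, replicate 3 was the lowest array for 22 of the 42 genes (52.4%), beside 24.8% of all tests. Hypertensive replicate 4 was the lowest of its group for 14 (33.3%, beside 33.0% of all tests) and the highest for 14 (33.3%, beside 24.5%). Hypertensive replicate 3 was the lowest for 14 (33.3%, beside 19.5%).

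Of 90 other genes that act with these families (co-receptors, processing enzymes and cytoplasmic effectors), 68 were tested and 0 passed the threshold in limma. There were 13 at an unadjusted p under 0.05 (7 higher, 6 lower), 0 passed without variance moderation, and the median difference was 0.02. These 13 are 19.1% of the 68, beside 20.3% of all tests, and the 0 past the threshold stand beside 4.53%. The groups did not overlap for 8 (11.8%, beside 13.6%), namely Crmp1, Dock1 and Rnd1, lower, and Met, Dscam, Lrig2, Dpysl2 and Farp1, higher. Crmp1, a collapsin response mediator that relays Sema3a signals in neurons, came nearest, at -4.07, -3.26, -3.75 and -3.06 in hypertensive vessels against -2.43, -2.49, -2.18 and -2.98 in control vessels. The groups of Crmp1 did not overlap (-1.01 ± 0.24, adjusted p = 0.0544), and it passed without hypertensive replicate 4 (-1.17, adjusted p = 0.0300). Met, the hepatocyte growth factor receptor that partners plexin-B1, also had no overlap, with 4.89, 5.05, 4.95 and 4.83 in hypertensive vessels against 4.58, 4.59, 4.68 and 4.34 in control vessels (0.38 ± 0.10, adjusted p = 0.0642). These partners were singled out after their values were seen.

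**Figure D4:**
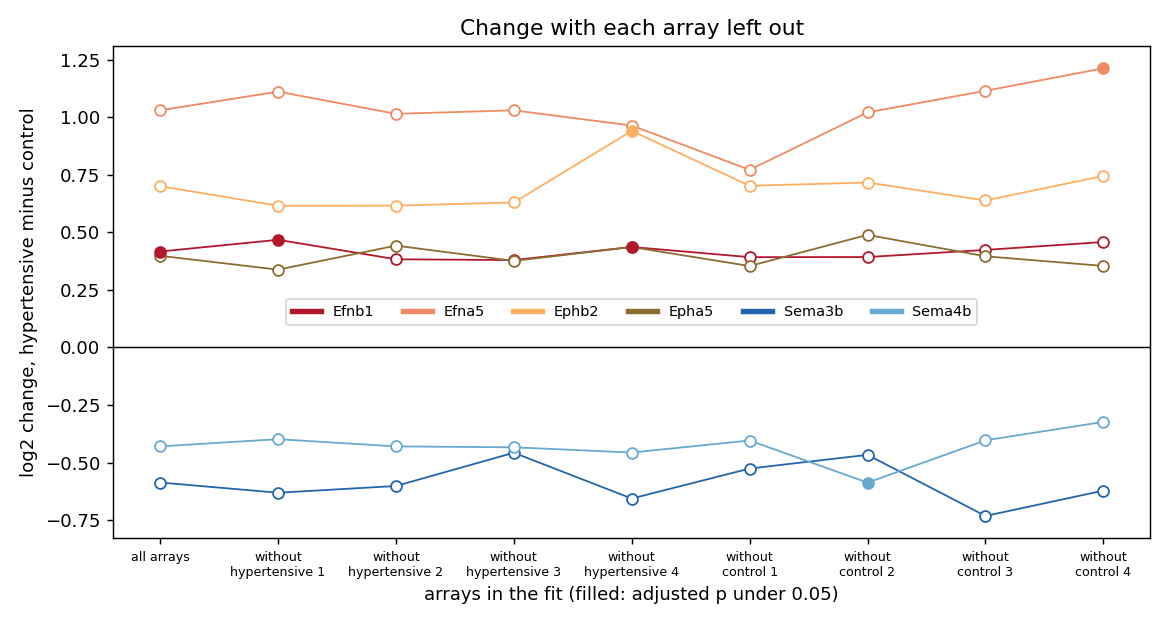
Log2 change (hypertensive minus control) of 6 guidance genes with all 8 arrays and with each array left out in turn; filled points have an adjusted p under 0.05. The sign of each gene stays the same throughout, while Efnb1 passes in 3 of the 9 fits and Ephb2 only without hypertensive replicate 4.

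Of the 80 cell type markers in 14 lists, 65 were tested and 3 passed the threshold (4.62%, beside 4.53% of all tests). The skeletal myosin Myh1 rose (2.28 ± 0.50), and the lymphatic marker Pdpn (-1.09 ± 0.08) and the macrophage receptor Mrc1 (-0.51 ± 0.12) fell. Other members of these lists went the other way, none past the threshold. They were Acta1 (-0.42 ± 0.16) and Tnnt3 (-0.14 ± 0.16) among skeletal muscle markers and Lyz2 among macrophage markers (0.53 ± 0.14). The other lymphatic markers differed far less than Pdpn and did not pass: Prox1 by -0.17 ± 0.16, Lyve1 by -0.18 ± 0.16 and Flt4 by -0.09 ± 0.12. The 4 tested lymphocyte markers had differences below 0 (median -0.43), with sums of 1.91 to 3.08 in hypertensive and 2.99 to 4.60 in control vessels. The 4 tested fat cell markers had differences above 0 (median 0.59), with sums of 2.95 to 23.6 in hypertensive and 2.26 to 6.18 in control vessels. All 4 read highest on hypertensive replicate 4, the array that the second principal component set apart. Adipoq read 0.70, -1.35, 0.27 and 3.46 in hypertensive vessels against -0.12, 1.05, 1.55 and -0.38 in control vessels. Fabp4 read 1.28, 1.29, 1.48 and 3.44 in hypertensive vessels against 0.19, 1.12, 1.48 and 0.97 in control vessels. Marker differences without that array were not computed. The platelet marker Pf4 differed by -0.44 ± 0.11 (adjusted p = 0.0557) without overlap, and Gp9, the other platelet marker tested, by 0.17 ± 0.11. The part of these markers in the differences of guidance genes was not tested.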

How the data were processed

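RNA of vessels from 4 hypertensive and 4 control rats was hybridised to 1-colour arrays. Group and replicate came from the sample titles. Per the file headers, the deposited spot intensity values were background-subtracted and processed by Agilent Feature Extraction (10.7.1.1; the submitters' processing notes give 12.1.1.1). The authors' deposited value table holds a ratio, the same processed signal divided by a constant of each array, with 0 values above 1 deviating by over 5%. Its medians were 0.101, 0.093, 0.097 and 0.090 in hypertensive and 0.092, 0.089, 0.086 and 0.091 in control replicates 1 to 4, its scale beyond that constant is not stated, and it served as an alternative.

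Control spots were left out, outlier spots were dropped where another spot of the probe remained, spots were averaged per probe as log2, and the array's 75th percentile was subtracted. No gene spot was saturated. A probe was kept if well above background on at least 3 arrays of either group (58.7% to 64.1% of 45598 probes were so per array). Accessions were matched to NCBI's rat gene table (GRCr8), which named 21229 probes (46.6%) and none of the 6336 with Ensembl names. The brightest kept probe stood for a gene. The groups were compared with limma 3.58.1 in R 4.3.3 (lmFit, eBayes), checked on simulated data. The arrays' number limits the precision.

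The member rule, gene lists and tests were chosen with earlier results of these data known. Plexins, whose symbols carry a letter before the number, and Unc5a to Unc5d were counted as members. Genes named are those past the threshold, those whose groups did not overlap, the 10 largest differences, 19 genes known from vessels, and partners or markers past the threshold. Partners without overlap, and the markers that did not pass, fall outside this rule and were named after their values were seen, and other members are given by their differences. Alternatives were other normalizations, background correction and detection filters, the deposited table, the mean of probes, a replicate block, each array left out and a plain equal-variance test. Normexp used median spot signals, since the files used here have no mean signal.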

Additional observations from a re-analysis of the deposited data

Results flagged for a closer look

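Of 46 groups of 4 arrays examined for 23 named genes, 2 held an array far from the other 3, and chance flags about 1 in 20 groups. Ephb2 was at -2.74 in hypertensive replicate 4, well below the other hypertensive arrays. Ephb1 was at -2.86 in control replicate 4, below the other control arrays.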

How the results depend on the processing

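The number of guidance genes past the threshold was 1, all higher. It was 0 with median centring, with no detection filter and with the plain test, 3 with normexp background correction (Efnb1, Efna5 and Epha5), 2 with the mean of kept probes (Efnb1 and Efna5, the second by averaging in a probe above background on no control array), and 0 to 2 with 1 array left out; the causes were not tested. Over all tests the share called was 4.53%, against 4.37% with median centring, 1.56% with no detection filter, 2.42% with the plain test, 7.56% with normexp, 4.64% with the mean of probes and 2.56% to 6% with 1 array left out. The number higher was 0 to 2 and the number lower 0 to 2 with 1 array left out, the 2 lower being Sema4b and Sema4g without control replicate 2. The number of partner genes, 0, was 1 with normexp (Met), 1 with detection on all 8 arrays (Crmp1) and 0 to 1 with 1 array left out. Quantile normalization and the deposited table changed none of these counts. With the replicate block 1 guidance gene passed, Efna5 (adjusted p = 0.0445) in place of Efnb1 (adjusted p = 0.0977), and over all tests 675 passed against 1111. Deviations of same-numbered arrays correlated at 0.206, 0.115, -0.0036 and -0.148, and 4 of 8 arrays correlated best with their own number. These values cannot settle whether the numbers pair the samples, and the main fit took no pairs. In both groups the replicate number is also the last position number in the file headers. The slide and scan block was not run, since all arrays share 1 slide and 1 scan.

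Signs turned for 7 named genes, none past the threshold, with differences from -0.18 (Unc5b) to 0.17 (Sema3c). With median centring Nrp2 was -0.0376, Ntn1 -0.0007, Ntn4 -0.0636, Sema3a -0.062 and Slit2 -0.0614. With normexp Nrp2 was -0.0171, Sema3a -0.0234 and Slit2 -0.0085, with quantile normalization Ntn4 was -0.0206, and with the mean of probes Nrp2 was -0.0453. With 1 array left out, the difference ranged from -0.0436 to 0.1537 for Nrp2, -0.0868 to 0.212 for Ntn1, -0.0657 to 0.1536 for Ntn4, -0.0688 to 0.1638 for Sema3a, -0.0434 to 0.2783 for Sema3c, -0.1114 to 0.136 for Slit2 and -0.3661 to 0.0741 for Unc5b. The other 16 named genes kept their sign in all settings run.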
